A study of Mus musculus with 5 samples.

Results

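The genes described here are 63 genes of WNT signalling, picked by symbol from the 23337 genes of the deposited table. They are 19 WNT ligands, the ligand-modifying enzyme gene Porcn, 10 Frizzled receptors, 4 co-receptors, 10 secreted inhibitors, 7 R-spondin and LGR genes, 2 genes of receptor turnover, 6 genes of the cytoplasmic relay and 4 TCF/LEF transcription factors. Messenger RNA came from mouse embryonic fibroblasts of strain 129Sv, immortalized with the SV40 T antigen, which inactivates p53 and the retinoblastoma protein, and grown without a named treatment. There were 3 libraries labelled WT (genotype wild type) and 2 labelled KO (genotype SIRT3 -/-, lacking a deacetylase of the mitochondrial matrix). The strain and the immortalization are shared by both groups, and the study as titled concerns the dependence of cells without SIRT3 on nucleotide synthesis. No label says how many separate lines or cultures stand behind a genotype, so genotype and line cannot be told apart, and each p-value reflects only how these libraries vary, which may be technical.

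WNT proteins are lipid-modified signals that are secreted and bind Frizzled receptors together with the co-receptors LRP5 and LRP6 or ROR1 and ROR2. In the branch called canonical, binding halts the complex of Axin and APC that destroys beta-catenin, and beta-catenin then acts in the nucleus with TCF/LEF factors. Secreted proteins of the SFRP, DKK and WIF families and the enzyme NOTUM curb the signal outside the cell, R-spondins raise it by sparing receptors from the ubiquitin ligases ZNRF3 and RNF43, and several of these brakes are themselves targets of beta-catenin. In fibroblasts the pathway is known for its part in matrix production and wound repair.

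The libraries held between 33473103 and 41758681 reads assigned to genes. Values below are normalized read counts (each gene's reads over the size factor of the library), or RPKM (reads scaled to transcript length and library size) where levels of different genes are compared. Sirt3 itself (chromosome 7, 140863663 to 140882309, mm10) stood at 169.7, 149 and 118 normalized read counts in WT replicates 1, 2 and 3 and at 200.4 and 217 in KO replicates 1 and 2 (log2 fold change 0.53, limma adjusted p = 0.0044, 0.0769 without KO replicate 2 and 0.23 with the median of tested genes within 5 Mb taken off). Its exons share 418 bp with Ric8a and 342 bp with Psmd13 on the other strand. This level goes against the label KO for an allele that makes no transcript, and totals per gene cannot show a missing exon, so every direction below is between libraries as labelled. Of 14 fibroblast markers 12 passed the filter on low values, and the summed RPKM of the 14 was 5822 to 6022 in the libraries labelled WT and 5026 to 5138 in those labelled KO, while Lum and Fap were near 0 in all 5. The sum rests on a few abundant genes such as Vim and S100a4. Among the 12, 2 were called higher (Col1a1 and Col1a2) and 6 lower, beside 65.3% of all genes tested called. Pdgfra was 15.9-fold, Dcn 5.12-fold and Col3a1 4.75-fold higher in the libraries labelled WT. Of 9 epithelial markers 2 passed (summed RPKM of the list 0.559 to 0.804 and 1.91 to 1.96, Krt5 at 0), and of 7 endothelial markers 3 (0.159 to 0.222 and 0.368 to 0.516, Tie1 at 0). Of 6 muscle markers 1 passed (0.148 to 0.271 and 0.880 to 1.29, Myod1 and Pax7 at 0), and of 6 neuronal markers 3 (67.5 to 69.8 and 9.92 to 10.3, Rbfox3 and Snap25 at 0). The neuronal sum followed Stmn2 (log2 fold change -7.85), while the other markers of that list past the filter, Mtap2 (0.80) and Elavl4 (2.19), were called higher. Elavl4 passed the filter only through the libraries labelled KO, so its call adds no support. The part of these markers in the results below was not tested.

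Ligands, receptors, inhibitors and TCF/LEF factors each held genes that differed between the groups, while beta-catenin itself did not pass the test. Notum and Sfrp1, which encode secreted inhibitors, and the ligand gene Wnt10a stood higher in the libraries labelled WT, by 16.8-fold, 8.46-fold and 7.46-fold. Dkk3, Rspo2, Sfrp2 and Wnt5a stood higher in those labelled KO, by 6.09-fold, 5.96-fold, 5.38-fold and 4.85-fold. A gene was tested when it reached 10 normalized read counts in at least 2 libraries, and 44 of the 63 genes passed. With limma and an adjusted p under 0.05 as the limit, 15 of these 44 were called higher in the libraries labelled KO and 17 were called lower. That is 72.7% of them, beside 65.3% of the 13062 genes tested (32.6% in each direction), so the share of calls is near the background. Of the 44, 15 (34.1%) were called and at least 2-fold apart on the log2 scale of the test, 10 higher and 5 lower, beside 13.0% of all genes tested (6.57% higher and 6.41% lower). Rnf43 passed the filter through the libraries labelled KO alone, and besides it 14 of 43 genes were called and at least 2-fold apart. The median log2 fold change was -0.016 for the 44 and -0.0023 for all genes tested, and the median size regardless of sign was 0.66 and 0.30. In 35 of the 44 the groups did not overlap, beside 75.4% of all genes tested. In RNA from whole cultures, fewer cells that express a gene and less RNA per cell cannot be told apart.

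**Figure D1:**
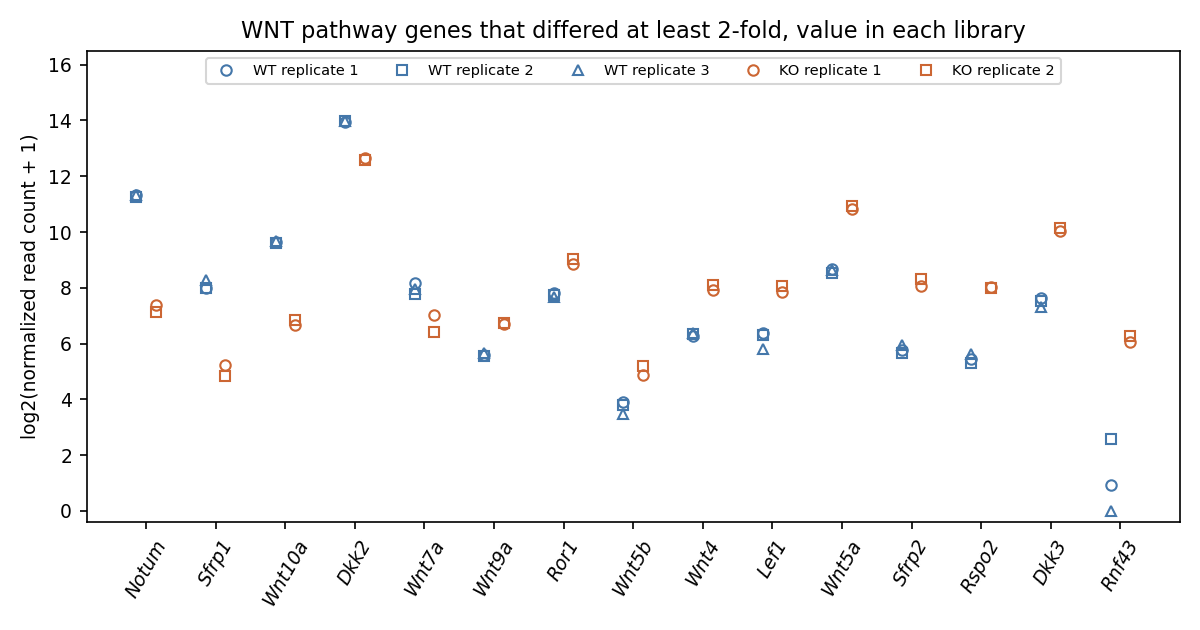
Normalized read counts, as log2(value + 1), of the 15 WNT genes that were called and at least 2-fold apart, with 1 symbol per library (blue, 3 labelled WT; orange, 2 labelled KO), ordered by log2 fold change from Notum to Rnf43. In each gene the blue and orange symbols do not overlap, which the choice of these genes made likely. The groups did not overlap in 75.4% of all genes tested.

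**Figure D2:**
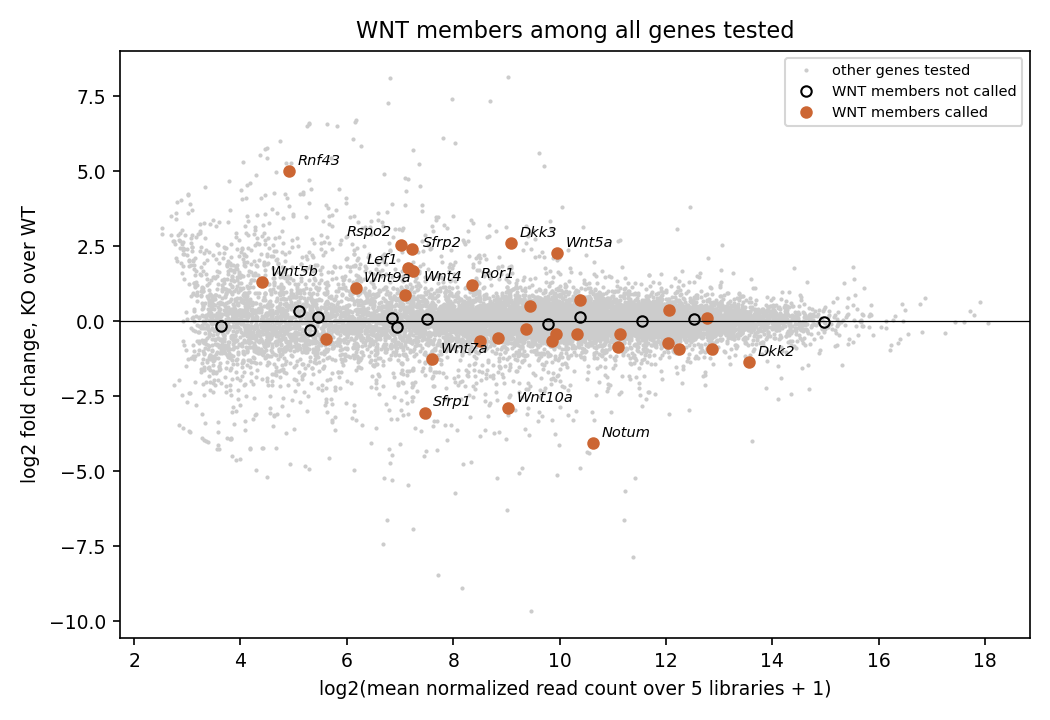
Log2 fold change (KO over WT as labelled) against mean level, as log2(mean normalized read count + 1), of the 13062 genes tested (grey), with the 32 called WNT genes as filled orange circles and the 12 not called as open circles. Notum (-4.07) and Rnf43 (4.99) are the lowest and the highest WNT genes, and the open circle farthest to the right is Ctnnb1 (-0.034).

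The DNA before the start sites was read for the short core that TCF/LEF factors recognise, CTTTGA or CTTTGT on either strand (TCAAAG or ACAAAG when it lies on the other strand). Matches that share end bases were each counted. RefSeq windows of 250 bases before a start (GRCm38.p6) were at hand for 41 of the 63 genes, 51 windows in all. Of these, 12 (23.5%) held the core, and so did 27.6% of all 32851 windows of that length. The core was in 4 of 16 windows of genes called higher, 6 of 14 of genes called lower, 0 of 6 of genes tested and not called and 2 of 15 of genes not tested. A match describes the letters and is not a known site. The windows printed here, which show the core before genes called in both directions, are of Dkk2, Fzd1 and Fzd7, called lower, and of Lef1 and Ror1, called higher in the libraries labelled KO. Capitals mark the core, and each line runs 5′ to 3′ on the gene's strand. The windows are Dkk2 at chr3:132085042-132085291 (plus strand), Fzd1 at chr5:4758217-4758466 (minus strand), Fzd7 at chr1:59481897-59482146 (plus strand), an internal start of Lef1 at chr3:131156044-131156293 (plus strand) and Ror1 at chr4:100095541-100095790 (plus strand).
Dkk2: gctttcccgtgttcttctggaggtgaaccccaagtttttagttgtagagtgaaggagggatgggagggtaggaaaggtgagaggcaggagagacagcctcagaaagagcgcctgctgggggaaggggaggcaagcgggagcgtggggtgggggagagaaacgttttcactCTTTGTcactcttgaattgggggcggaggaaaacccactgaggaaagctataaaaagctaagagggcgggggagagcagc
Fzd1: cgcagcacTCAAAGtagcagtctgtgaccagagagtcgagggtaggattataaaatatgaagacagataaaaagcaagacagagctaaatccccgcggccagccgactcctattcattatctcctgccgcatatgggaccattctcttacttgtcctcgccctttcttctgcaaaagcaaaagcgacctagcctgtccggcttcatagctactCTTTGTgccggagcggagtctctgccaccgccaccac
Fzd7: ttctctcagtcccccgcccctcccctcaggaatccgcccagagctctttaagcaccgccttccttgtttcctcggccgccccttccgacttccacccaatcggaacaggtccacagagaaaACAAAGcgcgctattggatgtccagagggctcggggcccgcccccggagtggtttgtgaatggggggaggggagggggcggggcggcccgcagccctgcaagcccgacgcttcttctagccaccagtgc
Lef1: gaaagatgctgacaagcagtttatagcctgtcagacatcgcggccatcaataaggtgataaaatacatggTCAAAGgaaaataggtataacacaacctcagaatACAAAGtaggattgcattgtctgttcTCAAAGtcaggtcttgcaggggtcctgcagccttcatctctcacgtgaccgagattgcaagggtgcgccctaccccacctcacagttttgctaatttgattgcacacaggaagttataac
Ror1: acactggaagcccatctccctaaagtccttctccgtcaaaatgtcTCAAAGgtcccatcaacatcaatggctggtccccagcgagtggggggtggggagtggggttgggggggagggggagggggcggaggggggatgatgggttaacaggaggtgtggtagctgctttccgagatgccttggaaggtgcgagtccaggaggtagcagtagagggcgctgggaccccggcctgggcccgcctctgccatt
The printed Lef1 window held 3 cores, Fzd1 held 2 and the other printed windows held 1 each. No core was found in the other windows of Lef1. The median ratio of CpG pairs to the number that base composition gives was 0.735 in the 51 windows and 0.373 in all windows.

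Of 10 ligands that passed the filter, 6 rose and 2 fell, beside 65.3% of all genes tested called. The mix of WNT messages differed between the groups while their sum was 1.16-fold apart. Wnt10a, a ligand of the canonical branch (chromosome 1, 74792019 to 74804176), stood at 801, 784 and 817 normalized read counts in WT replicates 1, 2 and 3 and at 100.2 and 114 in KO replicates 1 and 2. Wnt5a, the best known ligand of the noncanonical branch (chromosome 14, 28504543 to 28527448), stood at 408, 369 and 397 in the libraries labelled WT and at 1831 and 1962 in those labelled KO. Both genes were several-fold apart between groups, in opposite directions, with the libraries of a group close together. Their log2 fold changes were -2.89 (standard error 0.0973, limma adjusted p = 1.6e-16) and 2.28 (standard error 0.0724, adjusted p = 6.1e-17). On the RPKM scale Wnt10a made up 42.0% to 44.6% of the summed ligand level in the libraries labelled WT and 4.77% to 5.10% in those labelled KO. The share of Wnt5a was 9.22% to 9.59% in the libraries labelled WT and 39.1% to 39.2% in those labelled KO. The summed ligand level was 25.8 ± 1.29 RPKM (SD, n = 3) and 29.9 ± 1.11 RPKM (SD, n = 2).

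Wnt10b, a canonical ligand known for restraining fat cell formation, was another large part of the sum, at 26.8% to 29.0% and 33.9% to 34.9% of it. It rose 1.42-fold, from 623, 536 and 636 normalized read counts in the libraries labelled WT to 832 and 863 in those labelled KO (limma, adjusted p = 1.1e-05). Wnt4, a ligand of kidney and gonad development, stood 3.24-fold higher in the libraries labelled KO, at 241 and 276 against 76.9, 81.1 and 81.4 (adjusted p = 2.9e-09). Wnt9a, a ligand of joint formation, was at 102 and 107 against 47.7, 46.5 and 49.96, a 2.18-fold difference (adjusted p = 5.6e-05). In none of these 3 genes did the groups overlap, as in 75.4% of all genes tested. Wnt11, a noncanonical ligand of cell movements, was 1.83-fold higher, at 166 and 205 against 92.8, 101 and 110.1 (adjusted p = 6.1e-05). Wnt5b, the close relative of Wnt5a, was at 28.6 and 35.6 against 14.1, 12.9 and 10.2 (adjusted p = 0.0033), which is 2.59-fold more on few reads. Wnt7a, a ligand of limb and nerve development, fell: it was at 287, 221 and 247 in the libraries labelled WT and at 129.9 and 83.4 in those labelled KO (log2 fold change -1.26, adjusted p = 9.3e-07). Both libraries labelled KO lay below all 3 labelled WT for Wnt7a, and above all 3 for Wnt11 and Wnt5b. Neither Wnt7b (log2 fold change -0.29, adjusted p = 0.32) nor Wnt2b (0.15, adjusted p = 0.62) passed the test.

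**Figure D3:**
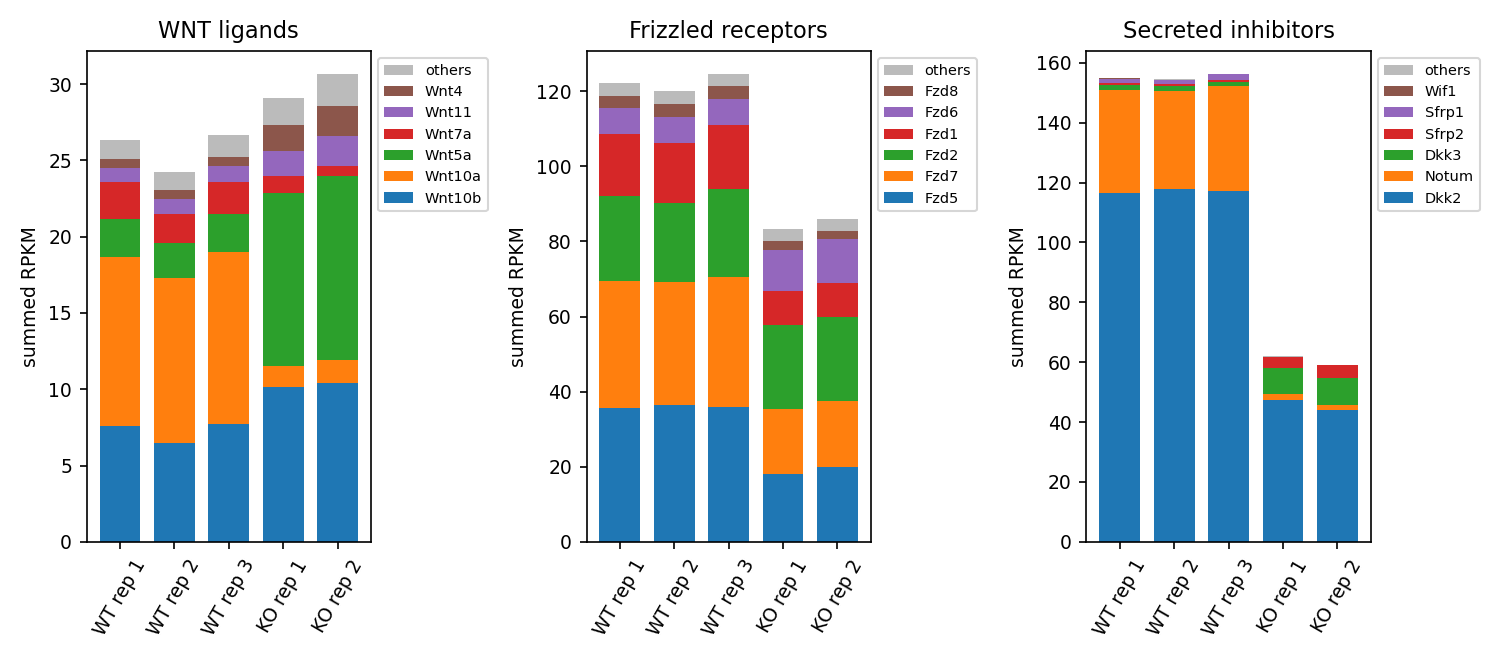
Stacked RPKM in each of the 5 libraries for the WNT ligands, the Frizzled receptors and the secreted inhibitors, with the 6 genes of highest mean level in each family coloured and the rest in grey. The Wnt10a block is smaller and the Wnt5a block larger in the libraries labelled KO, and the totals of the receptors and of the inhibitors are lower in both of them.

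Of the other 9 ligands, Wnt8a and Wnt9b had no read in any library, which allows up to 3 reads in each. Wnt1, Wnt2, Wnt3, Wnt3a, Wnt6, Wnt8b and Wnt16 lay between 0 and 8.33 normalized read counts. Some of these nearly silent genes sit beside expressed ones: Wnt6 lies 6.70 kb from Wnt10a on chromosome 1, Wnt1 lies 11.7 kb from Wnt10b on chromosome 15 and Wnt3a lies 16.1 kb from Wnt9a on chromosome 11. Wnt6 was at 7.96, 3.96 and 5.55 in the libraries labelled WT and at 2.20 and 1.11 in those labelled KO, too low to be tested. The nearest tested genes on either side, with their log2 fold changes, were Prkag3 (2.69) and Nhej1 (-0.28) for Wnt10a, Zbtb40 (-0.17) and Cdc42 (0.093) for Wnt4, Erc2 (2.30) and Selk (0.22) for Wnt5a and Fbln2 (2.54) and 1810044D09Rik (1.66) for Wnt7a. Of these, Prkag3 lay opposite to Wnt10a and both neighbours of Wnt7a lay opposite to it, and Erc2 lay on the same side as Wnt5a. Porcn, for the enzyme that attaches the lipid to WNT proteins, was at 216, 144 and 171 against 153 and 220.2, and its groups overlapped (log2 fold change 0.069, limma adjusted p = 0.73). Wls, for the carrier that takes WNT proteins to the cell surface, did not pass the test (log2 fold change -0.04, adjusted p = 0.39). Once the median of tested genes within 5 Mb was taken off, Wls stood at -0.21 (limma adjusted p = 0.0001). That median (0.17) came from 10 genes and was treated as fixed, so this adjusted p leaves out its uncertainty.

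The Frizzled receptors had a lower summed level in the libraries labelled KO, and the fall was seen in Fzd5, Fzd7, Fzd1 and Fzd8 but not in the abundant Fzd2. The sum was 122 ± 2.19 RPKM (SD, n = 3) in the libraries labelled WT and 84.5 ± 1.88 RPKM (SD, n = 2) in those labelled KO. Of 9 members past the filter, 4 fell, 1 rose and 4 did not pass the test, beside 65.3% of all genes tested called. No member reached a 2-fold difference on the log2 scale of the test. Fzd5, a receptor of gut and eye development (chromosome 1, 64730558 to 64737750), was at 9122, 9318 and 9154 normalized read counts in the libraries labelled WT and at 4604 and 5111 in those labelled KO. Fzd7, a receptor known from stem cells (chromosome 1, 59482147 to 59486955), was at 5974, 5806 and 6157 against 3057 and 3173. Fzd1, its close relative, was at 2640.1, 2581 and 2731 against 1437 and 1505. In these 3 receptors both libraries labelled KO lay far below all 3 labelled WT. Their log2 fold changes were -0.92, -0.94 and -0.85, with standard errors of 0.0426, 0.0413 and 0.0486 (limma, adjusted p = 4e-14, 1.6e-14 and 1.5e-12). Fzd8 fell by 0.67 on the log2 scale, from 416, 427 and 435 to 278 and 259 (adjusted p = 2.8e-06).

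Fzd6, a receptor known for hair and tissue polarity, was the Frizzled gene that rose. It went from 1052, 1078 and 1077 in the libraries labelled WT to 1686 and 1819 in those labelled KO (1.64-fold, limma adjusted p = 3.8e-10). Fzd2, which binds Wnt5a among others, was at 3048, 2846 and 3142 against 3012 and 3019, and its groups overlapped. In mean RPKM the order in the libraries labelled WT (SD, n = 3) was Fzd5 (36.0 ± 0.365), Fzd7 (33.7 ± 1.02), Fzd2 (22.5 ± 1.15), Fzd1 (16.4 ± 0.482) and Fzd6 (6.99 ± 0.0921). In those labelled KO (SD, n = 2) it was Fzd2 (22.4 ± 0.166), Fzd5 (18.9 ± 1.22), Fzd7 (17.5 ± 0.299), Fzd6 (11.4 ± 0.510) and Fzd1 (9.05 ± 0.211). Fzd2 was thus below Fzd5 and Fzd7 in one group and above both in the other, and in the libraries labelled KO the gap between Fzd5 and Fzd7 was close to the SD of Fzd5. Fzd3, Fzd4 and Fzd9 were less abundant and did not pass the test, with log2 fold changes of -0.093, -0.19 and 0.34. Fzd10 had 1 read in WT replicate 3 and none elsewhere.

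Of the 4 co-receptors, 2 were called higher and 2 lower, beside 65.3% of all genes tested called, and the call of Lrp6 was not stable. Lrp5, which pairs with Frizzled in the canonical branch (chromosome 19, 3584825 to 3686585), was 1.64-fold higher in the libraries labelled WT, at 5028, 4916 and 4942 against 2915 and 3124 (limma, adjusted p = 2.6e-12). Its partner in that role, Lrp6, was at 6648, 6989.9 and 6815 against 7061 and 7609.6. This rise of 0.10 on the log2 scale had an adjusted p of 0.03, was lost in 6 of 17 alternatives, among them without WT replicate 1 (0.136), WT replicate 3 (0.0712) or KO replicate 2 (0.296), and turned to -0.19 when the median of genes within 5 Mb was taken off. In mean RPKM Lrp5 was above Lrp6 in the libraries labelled WT (26.0 ± 0.332 and 19.7 ± 0.471, SD, n = 3) and below it in those labelled KO (15.7 ± 0.625 and 21.1 ± 0.923, SD, n = 2). Ror1, a receptor kinase of the noncanonical branch (chromosome 4, 100095791 to 100444806), rose 2.34-fold, from 224, 211 and 203 to 467 and 528 (adjusted p = 1.7e-09). Ror2, a receptor for Wnt5a, fell by 0.44 on the log2 scale, from 2584, 2452 and 2520.0 to 1825 and 1899 (adjusted p = 5.5e-08). It stayed the more abundant of the pair, at 12.6 against 3.79 RPKM in the libraries labelled KO.

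**Figure D4:**
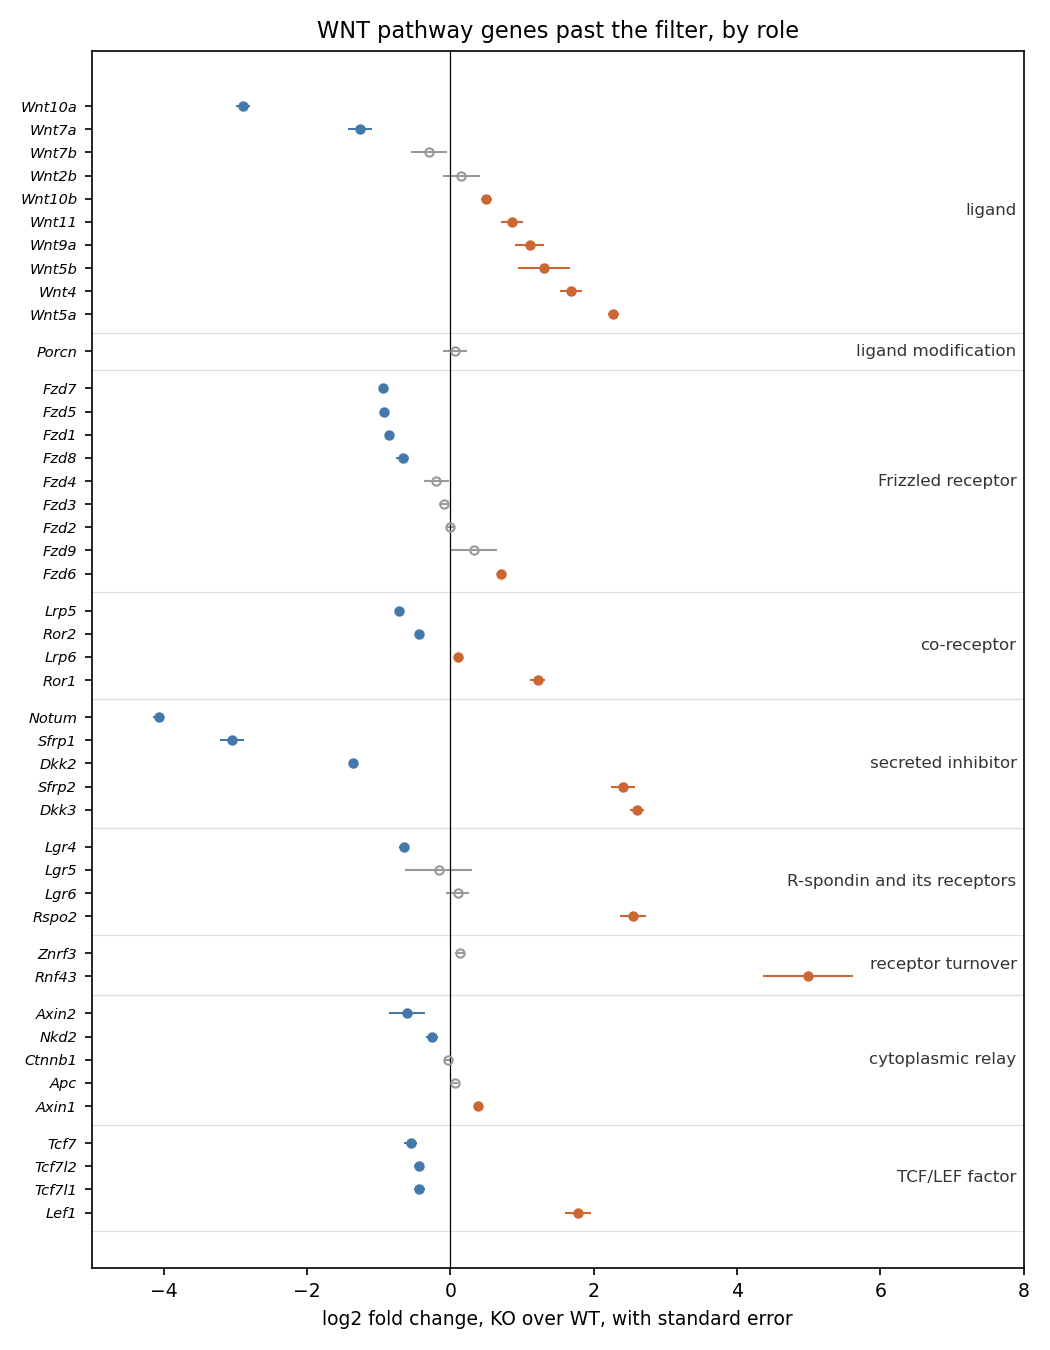
Log2 fold change (KO over WT as labelled, points) with its standard error (bars) for the 44 WNT genes past the filter, grouped by role: blue was called lower, orange called higher and open grey not called. The secreted inhibitors span -4.07 to 2.60 and the ligands -2.89 to 2.28, while the cytoplasmic relay lies within 1 log2 unit of 0.

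All 5 genes past the filter in the group of secreted inhibitors were called and at least 2-fold apart, beside 13.0% of all genes tested. Dkk3 stands in this group by its family name. In the libraries labelled KO, 3 of the 5 were lower and 2 higher. Dkk2, which binds LRP5 and LRP6, was the most abundant of them (chromosome 3, 132085266 to 132180304). It was at 15919, 16161 and 16052 normalized read counts in the libraries labelled WT and at 6453 and 6075 in those labelled KO, a 2.56-fold difference (log2 fold change -1.36, standard error 0.0377, limma adjusted p = 6.5e-18). Notum, for an enzyme that removes the lipid from WNT proteins (chromosome 11, 120653788 to 120661193), was at 2568, 2447 and 2599.6 against 164 and 138. Notum thus had the largest fall among the 44 genes tested (log2 fold change -4.07, standard error 0.0750, adjusted p = 5.2e-21). It overlaps the opposite-strand gene Notumos over 708 bp, 29.4% of its exonic length. The library kit does not mark strand, so reads of the pair in that stretch cannot be told apart. The summed level of the 10 inhibitors was 155 ± 0.9501 RPKM (SD, n = 3) in the libraries labelled WT and 60.6 ± 1.93 RPKM (SD, n = 2) in those labelled KO. Dkk2 made up 75.1% to 76.3% and 74.2% to 76.3% of it, and Notum 21.2% to 22.3% and 3.09% to 3.56%.

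The SFRP genes, whose proteins carry a Frizzled-like domain that binds WNT proteins, went in opposite directions. Sfrp1 (chromosome 8, 23411383 to 23449632) was at 255, 252 and 307 in the libraries labelled WT and at 36.3 and 27.8 in those labelled KO (log2 fold change -3.05, standard error 0.170, limma adjusted p = 1e-12). Sfrp2 (chromosome 3, 83765750 to 83774314) was at 53.0, 49.5 and 60.1 against 269 and 315 (log2 fold change 2.41, standard error 0.169, adjusted p = 4.8e-11). In neither gene did the groups overlap, as in 75.4% of all genes tested. Mean RPKM was 1.68 ± 0.193 for Sfrp1 and 0.733 ± 0.0741 for Sfrp2 in the libraries labelled WT (SD, n = 3), and 0.198 ± 0.0390 and 3.93 ± 0.402 in those labelled KO (SD, n = 2), so the order of the pair was turned around. Dkk3, a divergent DKK relative, rose 6.09-fold, from 196, 185 and 157 to 1056 and 1129.8 (adjusted p = 3e-15). Tested genes within 5 Mb of Dkk3 had a median log2 fold change of 0.67, and with that taken off its own was 1.94 instead of 2.60. Around Sfrp1 that median was 0.47, opposite to Sfrp1 itself. Dkk1, the founding DKK inhibitor, had no read in any library, and Dkk4, Sfrp4, Sfrp5 and Wif1 lay between 0 and 4.63 normalized read counts.

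Of the 4 R-spondins, which bind LGR receptors and strengthen WNT signals, Rspo2 passed the filter. Rspo2 (chromosome 15, 43020788 to 43171594) was at 42.4, 38.6 and 48.1 normalized read counts in the libraries labelled WT and at 259.9 and 254 in those labelled KO. The groups were far apart, with a log2 fold change of 2.55 (standard error 0.181, limma adjusted p = 5.6e-11). Its nearest tested neighbours were Angpt1 (-1.68) and Eif3e (0.35), in log2 fold changes. Rspo1, Rspo3 and Rspo4 lay between 0 and 10.01. Among the receptors, Lgr4, the broadly expressed one, was 1.57-fold higher in the libraries labelled WT, at 1103, 1070.3 and 1060.2 against 652 and 721 (adjusted p = 1.9e-08). Neither Lgr5 nor Lgr6, both known as stem cell markers, passed the test (log2 fold change -0.16 and 0.10). Rspo2 made up 4.37% to 5.57% and 28.8% to 32.3% of the summed RPKM of the 7 genes and Lgr4 80.1% to 82.9% and 53.4% to 54.1%, and the sum was 7.09 ± 0.0747 RPKM (SD, n = 3) and 6.80 ± 0.364 RPKM (SD, n = 2).

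Rnf43, for a ligase that removes Frizzled receptors from the cell surface, was nearly silent in the libraries labelled WT. It was at 0.884, 4.95 and 0 there and at 65.0 and 75.6 in those labelled KO, which is 6 reads against 127. The ratio after scaling was 37.7, with an exact Clopper-Pearson 95% interval of 16.9 to 104.8 that covers counting error only. Rnf43 passed the filter only through the libraries labelled KO, so that it had to differ, and its call adds no support. Its partner Znrf3 did not pass the test, at 1319, 1260.3 and 1275 against 1347 and 1464 (log2 fold change 0.13, adjusted p = 0.053). That value was past the threshold without KO replicate 1 (0.0203) and with the median of genes within 5 Mb taken off (0.0256). In the libraries labelled KO, Rnf43 made up 6.59% to 7.02% of the summed RPKM of the pair.

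No gene of the cytoplasmic relay was 2-fold apart. Of 5 past the filter 1 rose, 2 fell and 2 did not pass the test, beside 65.3% of all genes tested called. Ctnnb1, for beta-catenin, had the highest level of the 63 genes at 241 RPKM on average, and stood at 31899, 32744 and 33178 normalized read counts in the libraries labelled WT and 32359 and 31329 in those labelled KO. Its groups overlapped (log2 fold change -0.034, standard error 0.0374, limma adjusted p = 0.44). Apc, for the scaffold of the destruction complex, was at 0.072 (adjusted p = 0.11). Axin1, its partner, rose 1.30-fold, from 3739.6, 3781 and 3832 to 4766 and 5089.8 (adjusted p = 6.7e-08). The 178 tested genes within 5 Mb of Axin1 had a median log2 fold change of 0.33, and with that taken off Axin1 was at 0.045 (adjusted p = 0.37). Axin2, a widely used readout of canonical signalling, was low at 68.1, 46.5 and 51.8 against 40.8 and 31.1. It was called lower (log2 fold change -0.61, standard error 0.253, adjusted p = 0.041), but the call was lost in 8 of 17 alternatives. These were leaving out WT replicate 1 (0.176), WT replicate 3 (0.0531) or KO replicate 2 (0.235), DESeq2 (0.124), the RPKM scale (0.0674), no filter (0.094), the median of genes within 5 Mb taken off (0.464) and the comparison in the authors' deposited table (0.144). Nkd2, a Dishevelled-binding inhibitor, was called lower by 0.25 on the log2 scale, from 699, 649.9 and 757 to 557 and 622 (adjusted p = 0.01). That call was lost without WT replicate 3 (0.0642) or KO replicate 1 (0.155). Its relative Nkd1 was at 1.77, 5.93 and 8.33 in the libraries labelled WT, with no read in those labelled KO, and was too low to be tested.

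Of the 4 TCF/LEF factors, the DNA-binding partners of beta-catenin, 1 was called higher and 3 lower, beside 65.3% of all genes tested called. Lef1 (chromosome 3, 131110297 to 131224357) rose, from 81.3, 78.2 and 55.5 normalized read counts in the libraries labelled WT to 227 and 265 in those labelled KO. Its log2 fold change was 1.78 (standard error 0.179, limma adjusted p = 1.7e-08), and its groups were well apart. The window with 3 core matches printed above lies at an internal start of this gene, and gene totals do not separate its starts. The other Lef1 windows, which begin at 131110047, 131110073 and 131112541, held no core. Tcf7 fell by 0.55 on the log2 scale, from 494, 552 and 535 to 342 and 377 (adjusted p = 1.5e-05). Tcf7l2 fell by 0.44, from 1371, 1544 and 1384 to 972 and 1143 (adjusted p = 1e-05), and Tcf7l1 by 0.43, from 1107, 1046 and 1094 to 737 and 875 (adjusted p = 2e-05). In each of these 3 both libraries labelled KO lay below all 3 labelled WT. Lef1 made up 2.36% to 3.47% of the summed RPKM of the 4 factors in the libraries labelled WT and 12.8% in those labelled KO, and the sum was 26.2 ± 0.564 RPKM (SD, n = 3) and 21.1 ± 2.06 RPKM (SD, n = 2).

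Several of the genes above are known as feedback targets of beta-catenin, and the log2 fold changes of some are set side by side here. The set is not complete, so its mix of directions does not stand for all such targets. Notum (-4.07) was lower in the libraries labelled KO, Lef1 (1.78) and Rnf43 (4.99) were higher and Znrf3 (0.13) was not called. Axin2 (-0.61) was called lower, a call that 8 of 17 alternatives did not keep. Nkd1 was too low to be tested. The fitted value of Rnf43 depends on the pseudocount of 1, since its libraries labelled WT were near 0, and was 1.43 in the authors' deposited comparison. Rnf43 passed the filter only through the libraries labelled KO, so its call adds no support here.

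Other genes of the pathway were drawn from 5 lists, whose counts are to be read against the 65.3% of all genes tested that were called (32.6% in each direction). Of 20 genes of ligand secretion and extracellular binding, 12 passed the filter, 5 rose and 5 fell (median log2 fold change 0.090, against -0.0023 for all genes tested). Among those that rose, Tspan12 passed the filter only through the libraries labelled KO, so its call adds no support. Gpc4, a glypican that holds WNT proteins at the cell surface, stood 8.86-fold higher in the libraries labelled KO, at 1070.4 and 1102 against 133, 117 and 118 (limma, adjusted p = 1.7e-16). Apcdd1, an inhibitor in the membrane, was 2.33-fold higher in them (adjusted p = 3.6e-12), and Tpbg, an inhibitor of LRP6, was 2.04-fold higher in the libraries labelled WT (adjusted p = 8.7e-16). Of 23 genes of the destruction complex and Dishevelled, 23 passed the filter, 8 rose and 7 fell (median -0.044), a share of calls like that of all genes tested. Dact1, which binds Dishevelled, rose 3.92-fold, from 60.1, 46.5 and 36.1 to 182 and 191 (adjusted p = 3.5e-08). Tnks2, which marks Axin for decay, rose 1.73-fold (log2 fold change 0.79, adjusted p = 5.3e-14), and was at 0.42 with the median of genes within 5 Mb taken off. Csnk1g2, for a kinase of LRP6, fell by 0.34 on the log2 scale (adjusted p = 5.9e-08), but was at -0.046 with the median of genes within 5 Mb taken off (0.282). In this list 5 genes were called higher with DESeq2 and 4 with that median taken off.

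Of 18 nuclear partners of beta-catenin, 18 passed the filter, 4 rose and 9 fell (median log2 fold change -0.12). Tle4 and Tle1, corepressors of the Groucho family, moved apart, at 1.26 and -0.58 (limma, adjusted p = 5.5e-13 and 3.8e-09), and the corepressor gene Ctbp2 rose by 0.51 (adjusted p = 3.4e-09). With the median of genes within 5 Mb taken off, Ctbp2 was at 0.15 (adjusted p = 0.01), Tle4 at 0.87 and Tle1 at -0.53. Of 24 genes of planar polarity and the noncanonical branch, 23 passed, 5 rose and 8 fell (median -0.041). Nfatc4, for a calcium-regulated factor, was 7.06-fold higher in the libraries labelled WT, at 4785, 4329.9 and 4605 against 643 and 653 (adjusted p = 3.7e-21). Dchs1, a large cadherin of tissue polarity, was 8.15-fold higher in those labelled KO, at 616 and 693 against 70.7, 82.1 and 87.9 (adjusted p = 2.4e-14), and Prkca, for a protein kinase C, was 1.72-fold higher in those labelled WT (adjusted p = 6.1e-13). Of 34 genes reported as WNT targets in other tissues, 26 passed the filter, 8 rose and 16 fell (median -0.30), beside 32.6% of all genes tested in each direction. Among those that fell, Nrcam passed the filter only through the libraries labelled WT, so its call adds no support. Among those that rose, Msx2 reached the filter value in WT replicate 2 alone of the libraries labelled WT. It passed through the libraries labelled KO, so its call adds no support either. Ccnd2, for cyclin D2, rose 8.79-fold, from 326, 344 and 342 to 2799 and 3132 (adjusted p = 1.7e-19). Wisp1, a matricellular protein gene, rose 1.97-fold, and Jag1, for a Notch ligand, was 2.06-fold higher in the libraries labelled WT (adjusted p = 2.5e-14 and 3.9e-15).

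**Figure D5:**
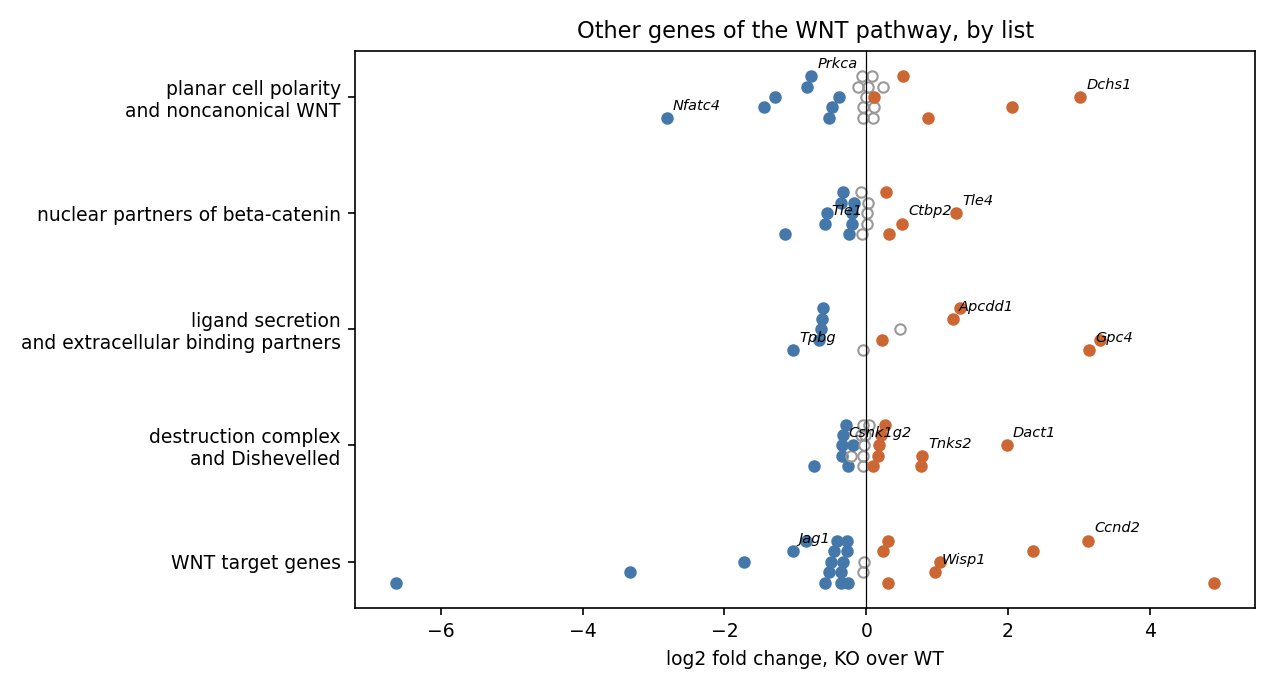
Log2 fold change (KO over WT as labelled) of the genes past the filter in 5 further lists of the pathway, with 1 point per gene (blue called lower, orange called higher, open grey not called; height within a list only separates points) and up to 3 called genes of smallest adjusted p named in each list. Called genes lie on both sides of 0 in each of the 5 lists.

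Some of the 63 genes lie in stretches where many genes shifted together, and the median of tested genes within 5 Mb was taken off to see its weight. The median was treated as a fixed value, so adjusted p-values after this step leave out its own uncertainty. The value of 18 of the 44 genes moved by under 0.1 on the log2 scale. Fzd2 then stood at 0.39 (limma, adjusted p = 3.1e-07), since the genes around it had a median of -0.38, and Lrp5 at -1.01 in place of -0.72. The calls of Axin1, Axin2 and Nkd2 were lost, and each of the 15 genes at least 2-fold apart kept its call and direction. Of the 44 genes, 11 share exonic sequence with a gene on the other strand (GENCODE annotation). Among these are Wnt5a (4.58% of its exonic length), Sfrp2 (16.1%), Fzd5 (17.8%), Lef1 (13.7%) and Ctnnb1 (14.6%).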

How the data were processed

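RNA bound to poly-T beads was turned into Nextera XT libraries, a kit that does not mark strand, per the protocols in the labels. STAR, DESeq2 and mm10 appear in the submitters' processing notes. Not given in the sources used here are the counter, the annotation and the strand setting. The deposited signal values are read counts that the authors divided by a size factor per library: 100% were whole multiples of a step within 0.1 reads. The authors also deposited RPKM values, log2 fold changes with standard errors, a test score and p-values, per the file headers. Totals were 33473103 to 41758681 reads. Within a group, libraries differed beyond sampling noise (mean chi-square per gene 3.40 to 7.48), so none is a second deposit of another; whether they are separate cultures is not shown by this.

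Since these are not raw counts, the main test was limma 3.58.1 with a trended prior (R 4.3.3), run on log2(value + 1) with genotype as the only factor, two-sided, with Benjamini-Hochberg adjustment over the 13062 genes that had 10 or more in at least 2 libraries. Fold changes on this scale understate those of low genes; plain folds are ratios of group means. The script was tested on simulated data. Members and lists were chosen with earlier results of these data known. The genes named with the value in every library are called members at least 2-fold apart, with others on which a statement rests; each further list gives up to 3 called genes of smallest adjusted p. Wls was added after its value was seen. A further marker list is not reported here. Positions are from RefSeq GRCm38.p6, the assembly that mm10 names. edgeR 4.0.16 and DESeq2 1.42.0 were run on the whole reads of 4 libraries. WT replicate 2, with a step of 0.989, was left out of these runs, although 100% of its values were also whole multiples of the step. Alternatives also covered the pseudocount, the filter, rescaling, RPKM, the authors' deposited comparison, the replicate block, the median of genes within 5 Mb, and leaving out each library.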

Additional observations from a re-analysis of the deposited data

How the results depend on the processing

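Of the 32 called WNT genes, 28 kept their call and direction in each of the 17 alternatives that gave a value; the exceptions were Axin1, Axin2, Nkd2 and Lrp6. With single libraries left out, 14 to 16 WNT genes were called higher and 15 to 17 lower, and over all genes 3770 to 4024 and 3829 to 3970; where 1 library labelled KO is left, it is assumed to vary like the others. The fit with the replicate block called 14 and 16 WNT genes and 3958 and 3947 genes in all, and ended the calls of Nkd2 and Lrp6. No label says that equal numbers pair libraries, and deviations of same-numbered libraries correlated at -0.00975 and -0.005. With the 2-fold minimum, 858 genes were higher and 837 lower, and of the WNT genes 10 were higher and 5 lower. On the recovered reads, edgeR called 4147 genes higher and 3956 lower, and DESeq2 3537 and 3428.

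The sign changed in 1 called gene, Lrp6 (log2 fold change -0.19 with the median of genes within 5 Mb taken off), and otherwise in genes not called. With that median taken off, Fzd3 was at 0.043, Ctnnb1 at 0.084 and Lgr5 at 0.079. Porcn was at -0.056 with DESeq2, -0.053 with edgeR and -0.19 to 0.33 with single libraries left out. Lgr5 was at 0.076 with DESeq2, 0.083 with edgeR and -0.52 to 0.20 with single libraries left out, Lgr6 at -0.031 to 0.24 and Wnt2b at -0.076 to 0.38. Fzd2 was at -0.038 with DESeq2, -0.033 with edgeR, -0.0033 on RPKM values, -0.0013 with TMM rescaling and -0.037 to 0.034 with single libraries left out. The cause was not tested. At this depth, genes that did not reach 10 normalized read counts in at least 2 libraries were not compared.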

Other observations

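The genes in this paragraph belong to the further lists of the pathway and were picked out after their values were seen. Msx1 and Msx2, homeobox factors that respond to WNT and BMP signals, lay in opposite directions. Msx1 was at 294, 316 and 321 normalized read counts in the libraries labelled WT and at 27.5 and 32.2 in those labelled KO (log2 fold change -3.34, limma adjusted p = 4.5e-14). Msx2 was at 8.84, 10.9 and 3.70 against 243 and 245 (log2 fold change 4.90, adjusted p = 4.8e-11). Of the libraries labelled WT, replicate 2 alone reached the filter value for Msx2. It thus passed the filter through the libraries labelled KO, and its call adds no support. Prickle1 and Prickle2, of the planar polarity branch, were also opposite: Prickle1 was at 54.8, 34.6 and 42.6 against 168 and 199 (log2 fold change 2.06, adjusted p = 2.1e-08) and Prickle2 at 496, 552 and 524 against 209 and 220.2 (log2 fold change -1.28, adjusted p = 1.3e-10). Nrcam, a neural adhesion molecule, was at 167, 175 and 188 in the libraries labelled WT, and at 0 and 2.22, which is 2 reads, in those labelled KO. Nrcam passed the filter only through the libraries labelled WT.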
